A study of Mus musculus with 30 samples.

Results

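The cytosolic ribosomal protein genes are the genes named Rpl, Rps, Rpsa and Rplp, which encode the protein parts of the large and the small subunit of the ribosome outside mitochondria. They were taken from the deposited counts table by gene symbol alone, with a pattern that keeps these names and their paralogs with a final a, l or x and leaves out the names marked -ps, and 88 of the 46078 genes in the table had such a name. They were measured by poly(A)-selected RNA sequencing of the scraped epithelial layer of the colon from wild-type C57BL/6J mice, in 30 libraries from 30 mice, 5 in each of 6 groups. Both sexes were given the vehicle (saline injection) or AOM/DSS, and the mice were 5 to 10 weeks old at the start by the study's methods. AOM/DSS stands for 1 injection of the carcinogen azoxymethane at 10 mg/kg followed by 3 cycles of 2.5% dextran sulfate sodium, an irritant of the gut lining, in the drinking water. AOM/DSS-treated males and females were killed at 9 weeks, soon after the third cycle, or at 15 weeks, when all mice had developed tumors, and the study describes the sequenced epithelium as tissue outside the tumors. Vehicle-treated males and females were killed at 9 weeks only. The same 10 vehicle libraries are therefore the baseline of both time points, and the effects of treatment and of the further weeks cannot be told apart at the later time.

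Each ribosome holds a single copy of almost every ribosomal protein (the stalk proteins P1 and P2 are present as dimers), so cells keep the output of these genes in step with each other. Most of their mRNAs begin with a cytosine and a run of pyrimidines, the terminal oligopyrimidine (TOP) motif, through which the mTOR and LARP1 pathway sets how much of each mRNA is translated, while MYC raises the transcription of the genes and of the ribosome assembly factors. In the colon, dividing crypt cells and tumor cells are known for a high output of ribosomes. The mRNAs are short and very abundant.

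Of the 88 genes, 83 are annotated as protein coding and 5 as pseudogenes (Rps12l1, Rps12l2, Rps3a2, Rps3a3 and Rps4l). The filter on low counts left 84. The other 4 were close to absent: Rpl10l, a copy of Rpl10 known from testis, had no count in any library, Rpl3l, the copy of Rpl3 known from muscle, had 0 to 3 counts, Rpl39l had 0 to 4 and Rps12l2 had 0 to 3. A further gene, Rpl24, had only 6 to 55 counts per library while its deposited FPKM (the level per transcript length and library size) was 298 to 467. Its exons overlap those of a read-through gene on the same strand, and its count-based values carry that limit. The processed copies marked -ps, 260 rows of the table, took 0.0125% to 0.0444% of the counts, and reads of a parent gene and of a near-identical copy may have been split between them or dropped in the counting.

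The window around the annotated start was read for pyrimidine runs and other motifs in the 63 members with an entry in the RefSeq promoter table (GRCm38.p6). A run in this window is not by itself a TOP motif, which begins at the first base of the mRNA. The first base of the mRNAs was not mapped here. A run of at least 8 pyrimidines on the gene strand, within 50 bases on either side of the start, was present in 52 of the 63 (82.5%), against 39.3% of 27025 genes in the table. A run of at least 8 purines in the same window was found in 23.8% of the members and 41.1% of all genes. The hexamer CTTTCC in that window, on the gene strand, was found in 30.2% of the members and 5.43% of all genes. The octamer CCGGAAGT, on either strand of the whole 300 bases, was found in 19.0% and 4.31%, and TATAAA in the 50 bases before the start in 1.59% and 3.15%. Some pyrimidine runs hold CTTTCC, so these counts overlap. Of the 12 members with an entry among the 15 that passed the test as higher at 15 weeks, 11 held such a pyrimidine run, where 82.5% of all 63 did. The purine run was found in 1 of these 12, CTTTCC in 1, CCGGAAGT in 4 and TATAAA in 1. Whether these 12 differed from the other members was not tested. The stretches below are those around the longest pyrimidine run, in capitals, of 6 of those members, for genes with several entries from the entry with the longest run. They are shown for the difference between the long runs of Rpl34, Rpl35 and Rps24 and the shorter ones of Rps12, Rpl22l1 and Rps27l, and all are 5′ to 3′ on the gene strand. Counted from the annotated start, the runs begin at -17 (Rpl34), -7 (Rpl35), -37 (Rps24), 8 (Rps12), 1 (Rpl22l1) and -12 (Rps27l).
Rpl34, chr3:130730330-130730359, minus strand: acccgCCCCTTCCTTTTCCTCTTCCgggga
Rpl35, chr2:39005115-39005144, minus strand: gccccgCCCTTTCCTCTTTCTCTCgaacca
Rps24, chr14:24490710-24490739, plus strand: gagcggTCCTCTTTTCCTCCTCTCCagctc
Rps12, chr10:23787182-23787211, minus strand: ccaccgccggCCTTTTCCCCTgccgccgcc
Rpl22l1, chr3:28805499-28805528, plus strand: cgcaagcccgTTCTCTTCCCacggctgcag
Rps27l, chr9:66946063-66946092, plus strand: actcctctccaCTCCTCCCCgccgcctcta

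Counts on genes ran from 9265804 to 30806392 per library with a median of 24697064.5. Replicates within groups had Spearman correlations of 0.941 to 0.994 over the table, and no pair was identical. Epithelial markers were present in all 30 libraries, with none of the 14 at 0 throughout a condition, and their summed level was 18338 to 46550 CPM (counts relative to the TMM-scaled library size) with vehicle, 23940 to 49296 at 9 weeks and 24051 to 52632 at 15 weeks. The summed smooth muscle markers ran from 77.7 to 5990 CPM with vehicle, from 82.2 to 299 at 9 weeks and from 57.0 to 141.6 at 15 weeks, with the highest value in male vehicle replicate 1. In bulk scrapes such as these, fewer cells of a type and less RNA per cell cannot be told apart. In the ribosomal protein genes, 2 libraries stood apart from all others, female 15-week replicate 2 and male 15-week replicate 5, and the main results on the members at 15 weeks are given with and without them.

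The members together took 3.13% to 5.29% of all counts, with a median of 3.92% in vehicle-treated mice, 3.74% at 9 weeks and 3.83% at 15 weeks. The highest shares were those of male 15-week replicate 5 (5.29%) and female 15-week replicate 2 (4.76%). The mean share was 3.75% ± 0.383 (SD, n = 10) with vehicle, 3.80% ± 0.376 (SD, n = 10) at 9 weeks and 3.99% ± 0.596 (SD, n = 10) at 15 weeks, so the conditions differed by less than the spread between mice. In the deposited TPM values (transcript shares, scaled to the same sum in each library), which divide by transcript length, the order of the means was different, with 2.53% ± 0.716 with vehicle, 3.14% ± 0.612 at 9 weeks and 2.38% ± 0.882 at 15 weeks (SD, n = 10 each). A single mitochondrial gene, mt-Nd4l, took 39.2% to 58.1% of the TPM sum of a library, so that a share of TPM moves with that gene. Female 15-week replicate 2, with 4.76% of the counts in the members, had 1.39% of the TPM in them and 56.5% in mt-Nd4l.

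The joint shift of a library is the mean, over the 84 tested members, of the difference in log2 CPM from the vehicle mean of the same gene. In vehicle-treated mice it ran from -0.16 to 0.17, with an SD of 0.12 (n = 10). At 9 weeks it ran from -0.20 to 0.25, with a mean of 0.021 ± 0.15 (SD, n = 10), and these values covered those of the vehicle group. At 15 weeks it ran from -0.050 to 0.66, with a mean of 0.19 ± 0.25 (SD, n = 10) and a median of 0.11. The mean at 15 weeks was drawn up by female replicate 2, at 0.66 with 82 of the 84 members above their vehicle mean, and by male replicate 5, at 0.59 with 83 of 84. The next library, male 15-week replicate 1, lay at 0.29, and the remaining 7 lay within the vehicle range. By sex the mean shift at 15 weeks was 0.15 ± 0.29 in females and 0.23 ± 0.22 in males (SD, n = 5 each), against -0.018 ± 0.16 and 0.018 ± 0.058 with vehicle.

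**Figure D1:**
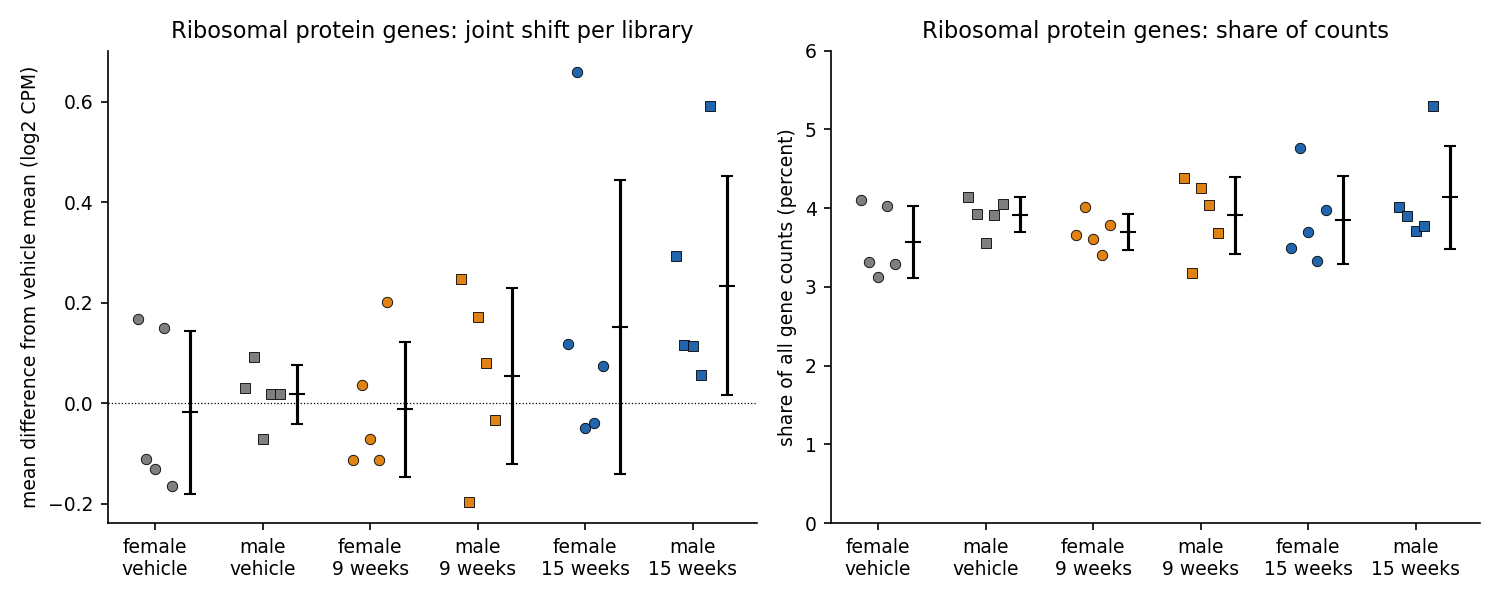
The left panel plots, for each of the 30 libraries, the mean difference of the 84 tested ribosomal protein genes from their vehicle mean (log2 CPM), and the right panel their share of all gene counts in percent, by group and with the group means. At 15 weeks, 1 female library at 0.66 and 1 male library at 0.59 stand above all others, and the remaining libraries of the 3 conditions overlap.

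The members also moved less evenly in treated mice. The SD over members of the difference from the vehicle mean, within a library, had a median of 0.15 in vehicle-treated mice (range 0.093 to 0.23), 0.22 at 9 weeks (0.15 to 0.29) and 0.27 at 15 weeks (0.14 to 0.35), on the log2 scale. The vehicle libraries enter the vehicle mean themselves, which lowers their own values. The SD also takes in members with few counts, such as Rps12l1 (0 to 27 per library) and Rps4l (23 to 294). How much of the spread is theirs was not tested.

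In the comparison of 9 weeks of AOM/DSS with vehicle, over both sexes (10 libraries against 10), the family was nearly level. The fitted log2 fold change was above 0 in 58 of 84 members, with a median of 0.026 and quartiles of -0.021 and 0.066, while the median over all 16261 genes tested was -0.024 and the median standard error (SE) of a member was 0.096. No member rose at an adjusted p under 0.05 (edgeR's quasi-likelihood test with Benjamini-Hochberg adjustment over all genes tested), where 9.88% of all genes did. At an unadjusted p under 0.05 there were 3 members. The only member called was Rps4l, which fell, where 6.32% of all genes did. Rpl9, a large subunit protein, was next with a log2 fold change of -0.24 (adjusted p = 0.0509). DESeq2 called no member as higher and both Rps4l and Rpl9 (-0.23, adjusted p = 0.0371) as lower.

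At 15 weeks against vehicle, over both sexes, the log2 fold change was above 0 in 82 of 84 members, with a median of 0.21 and quartiles of 0.15 and 0.28, against a median of -0.025 over all genes. At an adjusted p under 0.05, 15 members rose (17.9% of those tested, where 7.76% of all genes did) and 1 fell (where 9.66% did). Of the 15 that rose, most of them core members of the subunits, Rpl11, Rpl22l1, Rpl27, Rpl32, Rpl34, Rpl35 and Rpl41 belong to the large subunit. Rps2, Rps12, Rps13, Rps15a, Rps20, Rps24 and Rps27l belong to the small subunit, and Rps12l1 is an annotated pseudogene. The one that fell was again Rps4l. With the study's added thresholds, a log2 fold change beyond 0.4 and a mean FPKM of at least 1 in a compared group, 4 members rose (Rpl41, Rps12, Rps12l1 and Rps27l, where 3.54% of all genes did) and 1 fell (where 4.25% did). The number of calls moved when single libraries were left out. The 2 libraries that stood apart were picked by the members' own values. Leaving them out was therefore bound to lower the median, and the values without them only describe how much rests on them. Without the 2 libraries that stood apart, the median was 0.099 with 81 of 84 members above 0, and the members called were 2, Rps27l as higher and Rps4l as lower, where 4.32% of all genes were called as higher. Left out alone, male 15-week replicate 5 gave 4 calls and female 15-week replicate 2 gave 6, and female vehicle replicate 5, the shallowest library, also gave 6. Male vehicle replicate 3 gave 7, female vehicle replicates 2 and 3 and male vehicle replicate 5 gave 9 each, and male vehicle replicate 1 and male 15-week replicate 1 gave 10 each. Without male vehicle replicate 1, 5.54% of all genes rose and 5.87% fell. The most calls in these 20 fits, 23, came without female vehicle replicate 4.

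**Figure D2:**
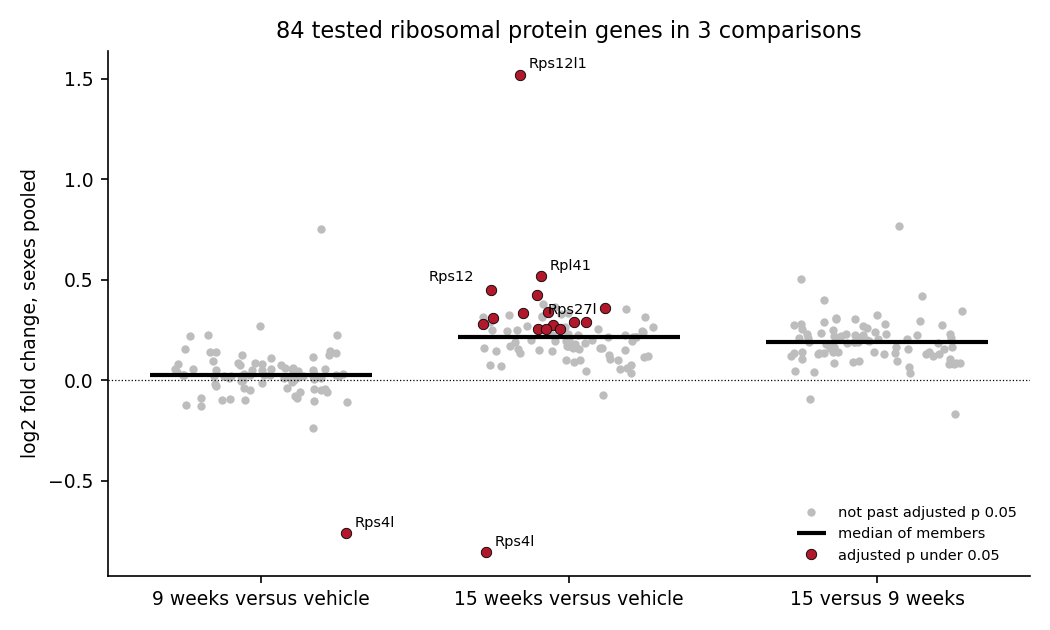
Each point is 1 of the 84 tested ribosomal protein genes, placed by its log2 fold change over both sexes in 3 comparisons, with the members that passed an adjusted p of 0.05 marked. The cloud is centred at 0.026 at 9 weeks against vehicle, at 0.21 at 15 weeks against vehicle and at 0.19 at 15 against 9 weeks, and Rps4l lies far below the others in both comparisons with vehicle.

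Rps27l, a small subunit protein close in sequence to Rps27 and known as a target of p53, was the member with the lowest adjusted p (GRCm38 chr9:66946086-66949516). Its level was 65.8 to 82.4 CPM in vehicle-treated females and 44.5 to 76.4 CPM in vehicle-treated males, 68.7 to 86.1 and 65.8 to 90.4 CPM at 9 weeks, and 75.2 to 103.9 and 82.3 to 111.0 CPM at 15 weeks. In males the groups of 15 weeks and vehicle did not overlap, and in females they did. The lowest of all values was that of male vehicle replicate 1, the library with the highest smooth muscle markers. Rps27l rose at 15 weeks with a log2 fold change of 0.43 (SE 0.088, adjusted p = 0.00252), and this call held under all 31 other settings run, with adjusted p-values of 1.15e-04 to 0.0332. At 9 weeks the log2 fold change of Rps27l was 0.22 (adjusted p = 0.0816), and 3 of 30 other settings called it as higher. Its partner Rps27 had 298 CPM at the lowest, 336 at the median and 387 at the highest with vehicle, and 280, 393 and 539 CPM at 15 weeks. That gives a log2 fold change of 0.22 for Rps27 (adjusted p = 0.129), which missed the threshold, and the difference between the 2 genes was not tested. Per length, Rps27l was the lesser member of the pair, with a vehicle median of 93.6 FPKM against 700.2 FPKM for Rps27.

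Beside Rps27l, the largest rises among the abundant members called were those of Rpl41, which encodes the smallest protein of the ribosome, and of the small subunit genes Rps12, Rps20 and Rps2. Rpl41 had 472, 619 and 784 CPM (lowest, median and highest) with vehicle, 442, 582 and 912 CPM at 9 weeks and 531, 781 and 1636 CPM at 15 weeks. Female 15-week replicate 2 held the highest value, with male 15-week replicates 1 and 5 next, and 5 of the 10 libraries at 15 weeks lay within the vehicle range. The log2 fold change of Rpl41 at 15 weeks was 0.52 (SE 0.18, adjusted p = 0.0456), and it was 0.28 without both libraries (adjusted p = 0.224). Rps12 had 378, 460 and 608 CPM with vehicle, 411, 539 and 698 CPM at 9 weeks and 481, 557 and 1194 CPM at 15 weeks, with a log2 fold change of 0.45 (SE 0.15, adjusted p = 0.0337). Rps20, a protein of the head of the small subunit, had 281, 328 and 394 CPM with vehicle, 288, 340 and 447 CPM at 9 weeks and 309, 382 and 675 CPM at 15 weeks. Its log2 fold change was 0.36 (SE 0.12, adjusted p = 0.0348). The highest values of Rps12 and Rps20 were again those of female 15-week replicate 2, and without both libraries neither passed the threshold (adjusted p = 0.157 and 0.128). Rps2, which lies at the entry of the mRNA channel, had 483, 581 and 736 CPM with vehicle, 537, 619 and 779 CPM at 9 weeks and 606, 702 and 1065 CPM at 15 weeks, with a log2 fold change of 0.34 (SE 0.096, adjusted p = 0.0186). Without both libraries Rps2 had 0.24 (adjusted p = 0.0700). The largest fitted rise was that of Rps12l1, an annotated processed pseudogene with 0 to 27 counts per library. Its log2 fold change of 1.52 (SE 0.50, adjusted p = 0.0367), or 1.23 without both libraries (adjusted p = 0.131), rests on a few reads, and some of these may be reads of Rps12, which was not tested.

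**Figure D3:**
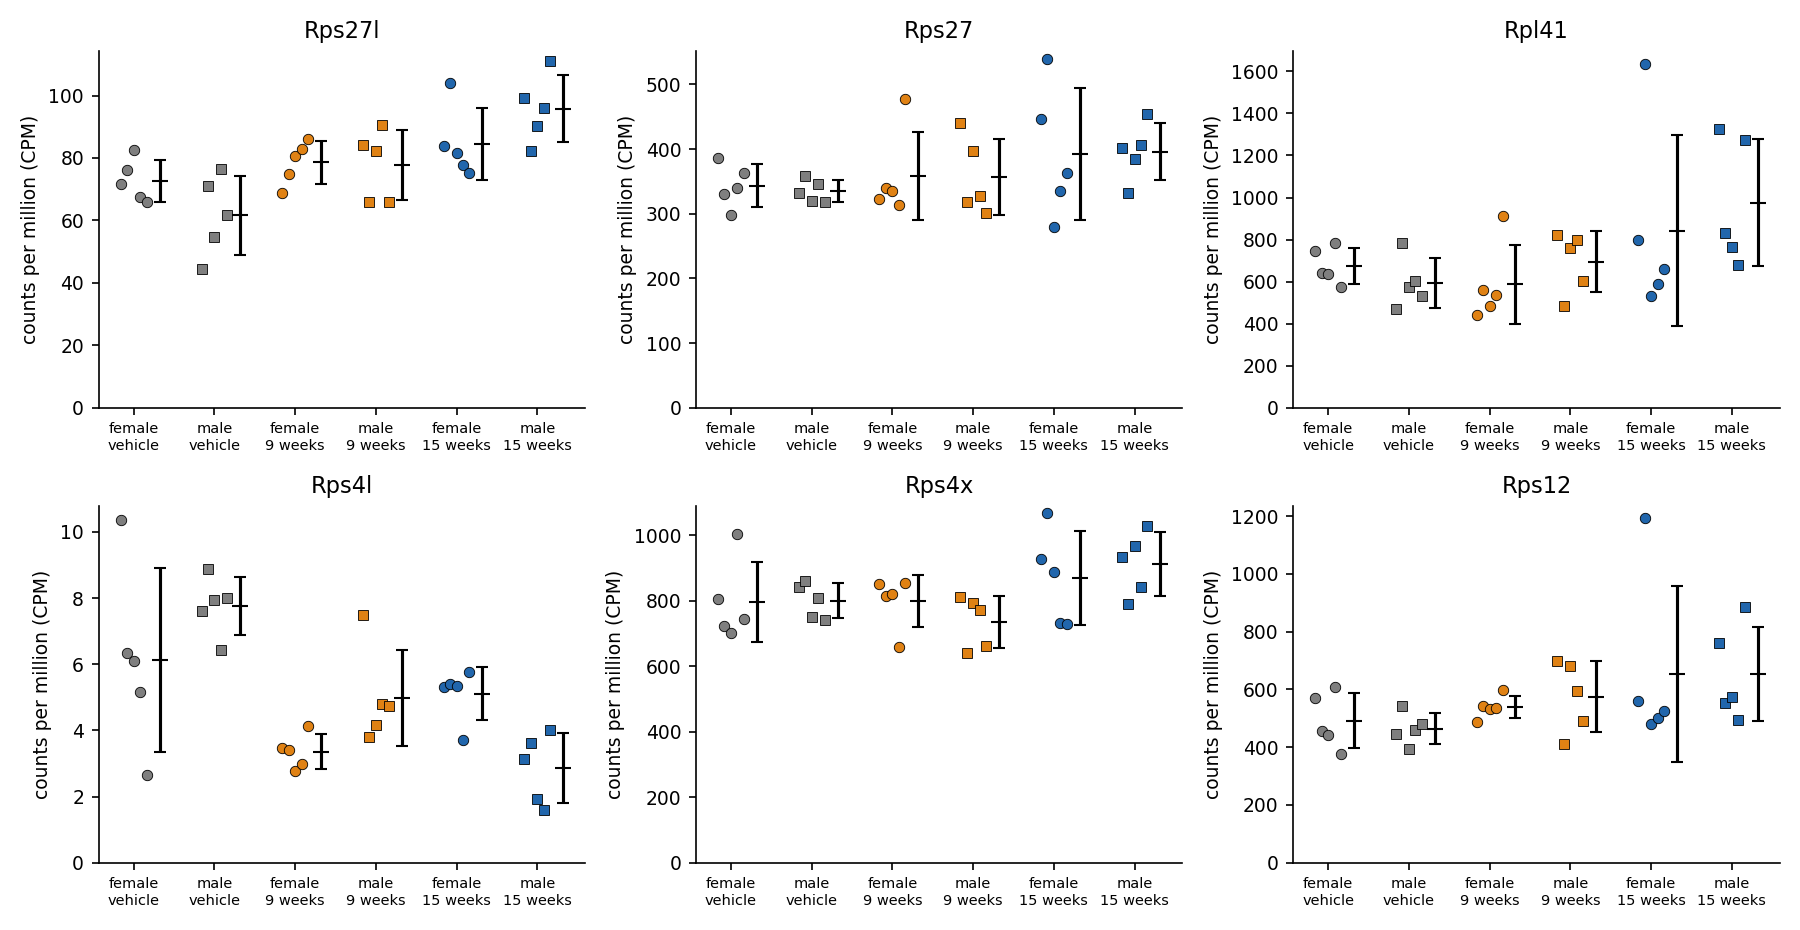
Each panel shows the level of Rps27l, Rps27, Rpl41, Rps4l, Rps4x or Rps12 in CPM in the 30 libraries, by group, with the group means. For Rpl41 and Rps12 the highest points are those of female 15-week replicate 2, at 1636 and 1194 CPM, whereas Rps4l is lower in most treated libraries than in most vehicle libraries.

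Rps4l was the member that fell. It is annotated as a transcribed processed copy of Rps4x (GRCm38 chr6:148354656-148355598, 1 exon) and had 23 to 294 counts per library. Its level was 2.67, 7.02 and 10.4 CPM (lowest, median and highest) with vehicle, 2.77, 3.97 and 7.48 CPM at 9 weeks and 1.58, 3.86 and 5.77 CPM at 15 weeks, and the groups overlapped. Over both sexes, the log2 fold change of Rps4l was -0.76 at 9 weeks (SE 0.19, adjusted p = 0.00513) and -0.85 at 15 weeks (SE 0.19, adjusted p = 0.00403). Both of these pooled calls held under every other setting run for Rps4l. The fall at 15 weeks was mainly that of the males, at -1.43, while in females no member lay below -0.27. At 9 weeks the lowest log2 fold change of any member was -0.88 in females and -0.64 in males. The difference between the sexes did not pass the interaction test. Rps4x, the X-linked parent of that copy, had 701, 777 and 1002 CPM with vehicle and 728, 906 and 1069 CPM at 15 weeks, with a log2 fold change of 0.16 (adjusted p = 0.175). Because the 2 genes share sequence, reads may have been assigned to either, and the fall of Rps4l carries that uncertainty.

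Of the other paralog pairs, Rpl22l1, which can take the place of Rpl22 in the large subunit, had 63.8, 69.7 and 88.8 CPM with vehicle and 71.3, 82.6 and 114.9 CPM at 15 weeks. Rpl22l1 rose by a log2 fold change of 0.27 (SE 0.092, adjusted p = 0.0398), and had 0.18 without both libraries (adjusted p = 0.156). For Rpl22 the log2 fold change was 0.17 (adjusted p = 0.0951). The vehicle medians were 213 CPM for Rpl22 and 69.7 CPM for Rpl22l1, but 81.1 and 90.9 FPKM. The ratio of counts to FPKM puts the length behind the FPKM of Rpl22 at 2616 bases and that of Rpl22l1 at 795 bases, while the annotated coding transcripts have 474 and 552 bases, so the order of the 2 per length depends on the transcript taken. Rpl7l1, a copy of Rpl7 known from ribosome assembly, had a log2 fold change of 0.20 (adjusted p = 0.104) and Rpl7 one of 0.19 (adjusted p = 0.0783), with vehicle medians of 16.6 and 554 FPKM. The parents of the paralogs that were nearly absent had log2 fold changes of 0.073 for Rpl3, 0.10 for Rpl10 and 0.26 for Rpl39 (adjusted p = 0.535, 0.308 and 0.0601). The genes of the stalk, the arm of the large subunit that binds translation factors, did not pass the threshold. Rplp0, its base, had 1081, 1292 and 1411 CPM with vehicle and 1113, 1407 and 1997 CPM at 15 weeks (log2 fold change 0.16, adjusted p = 0.191). The acidic proteins Rplp1 and Rplp2 had log2 fold changes of 0.29 and 0.32 with wide SEs of 0.19 each (adjusted p = 0.279 and 0.226).

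At 15 against 9 weeks, 82 of 84 members had a log2 fold change above 0, with a median of 0.19 against -0.021 over all genes. No member was called in either direction, where 0.978% of all genes rose and 3.98% fell, and 34 members had an unadjusted p under 0.05. DESeq2 called 2 members. Without the 2 libraries that stood apart the median was 0.075, with 69 of 84 above 0. Without female 9-week replicate 5, which had the highest shift of its group at 0.20, 22 members were called as higher, where 7.74% of all genes were in the same fit. On the deposited FPKM values, log2(FPKM + 1) in limma, the median of this comparison was -0.022, so its direction turned.

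By sex, the median log2 fold change of the members at 9 weeks was 0.016 in females and 0.021 in males, and at 15 weeks 0.18 in females and 0.24 in males, with 81 of 84 members above 0 in each sex at 15 weeks. With 5 mice per group the median SE of a member rose to 0.14. In females no member was called at 9 weeks (where 3.53% of all genes rose and 0.664% fell) or at 15 weeks (where 0.105% rose and 0.0123% fell). At an unadjusted p under 0.05 there were 1 and 3 members, respectively. Without female replicate 2 the female median at 15 weeks was 0.041. In males no member was called at 9 weeks (where 5.82% rose and 4.27% fell, with 3 members at an unadjusted p under 0.05). At 15 weeks Rps27l (log2 fold change 0.64, adjusted p = 0.00242) and Rps2 (0.44, adjusted p = 0.0318) rose in males, where 6.11% of all genes did, and Rps4l fell (-1.43, adjusted p = 0.00181), where 8.31% did. Without male replicate 5 the male median was 0.16. Without male 15-week replicate 4 the members called were 7, and without replicate 2 or 3 they were 5. No member passed the interaction test of the male against the female change at 9 weeks (where 0% of all genes did) or at 15 weeks (where 0.00615% did), with 0 and 2 members at an unadjusted p under 0.05 and medians of the difference of 0.023 and 0.057. Among vehicle-treated mice no member passed the test between males and females (0.215% of all genes were higher and 0.0369% lower in males, and 1 member had an unadjusted p under 0.05).

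Ribosomal protein transcripts are short, and whether genes of like length moved in the same way was read from the genes that are no members. The annotated transcript length (GENCODE on GRCm38) had a median of 740 bases in the members, with quartiles of 523.75 and 953.25, and 2559 bases in the other genes tested. Over those other genes the change at 15 weeks followed length. Its median log2 fold change was 0.23 under 600 bases (1005 genes), 0.17 from 600 to 1000 bases (1174 genes), 0.064 from 1000 to 2000 (3799 genes), -0.032 from 2000 to 4000 (6107 genes) and -0.15 above 4000 bases (4035 genes). The members in the same classes had medians of 0.25 (31 genes), 0.17 (35 genes), 0.20 (16 genes) and 0.21 (2 genes). Below 1000 bases, where most of the 84 lie, the members thus stood close to the other genes, and above 1000 bases they stood higher. The class above 1000 bases depends on the transcript annotated. Some members there have short coding sequences, such as Rps20 (3706 bases, 357 of them coding) and Rps24 (1613 and 399), while others, such as Rpl4 (1538 and 1257), do not. Which transcripts were present was not tested. Between the quartiles of the members' lengths the median was 0.19 for 42 members and 0.18 for 1216 other genes. For the 53 other genes that were shorter than 1000 bases and at least as abundant as the lower quartile of the members, it was 0.31, against 0.19 for the 46 members there. With lengths taken from the ratio of counts to FPKM in place of the annotation, the range between the quartiles gave 0.21 for the members and 0.20 for 996 other genes.

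**Figure D4:**
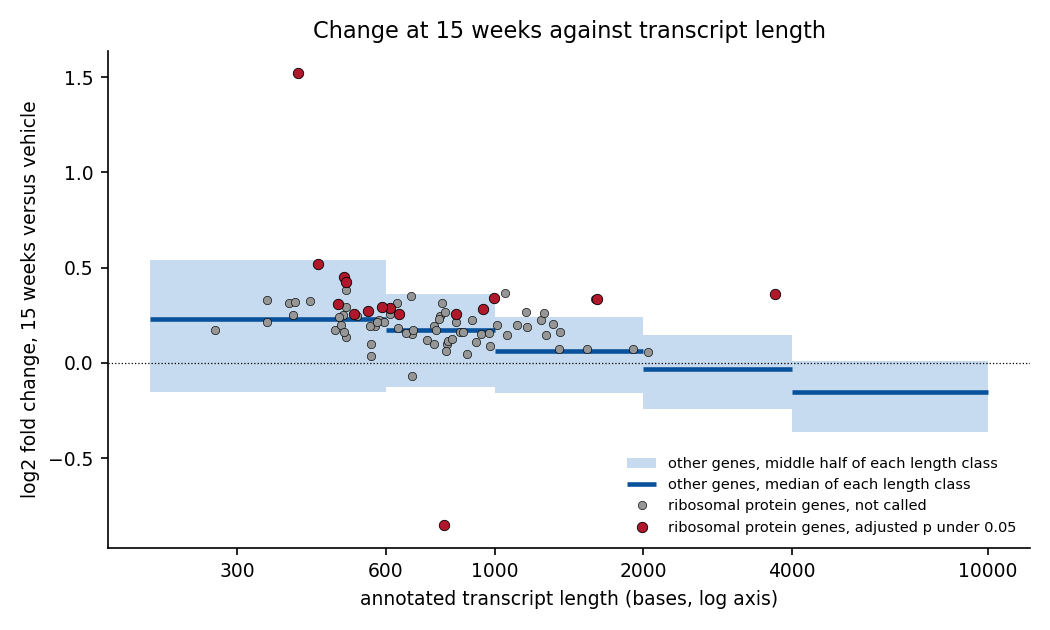
The log2 fold change at 15 weeks against vehicle is plotted against annotated transcript length on a log axis. Points are the tested ribosomal protein genes, and the other genes are drawn only as the median and the range between the quartiles of each length class. The medians of the other genes fall from 0.23 under 600 bases to -0.15 above 4000 bases, and most members lie on the short side around the height of their class.

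Among the 79 members with a mean of at least 500 counts, those shorter than the median length had a median log2 fold change of 0.24 and the longer ones 0.18. Over these 79, the Spearman correlation of the change was -0.29 with transcript length and -0.53 with coding length, across genes that share their libraries. Over all 84 tested, with the coding length of the pseudogenes set to 0, it was -0.31 and -0.44. Without the 2 libraries that stood apart, the correlations over all 84 were -0.097 and -0.21. The shorter and longer members with at least 500 counts then had medians of 0.12 and 0.076. Single genes did not all follow the order of length. Of the shortest members tested, Rps28 (271 bases) had a log2 fold change of 0.17, Rpl38 (345 bases) 0.33 and Rps27 (345 bases) 0.22, none past the threshold. Of the longest, Rps20 (3706 bases in the only coding transcript annotated) was among those that rose, while Rpl5 (2045 bases) had 0.055 and Rps3 (1908 bases) 0.074, neither past it. By subunit, with the same minimum of 500 counts, the large subunit had a median of 0.22 over 47 genes and the small subunit 0.19 over 32 genes, or 0.10 and 0.084 without both libraries.

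At 15 against 9 weeks the medians of the other genes were also lower in longer classes, except under 600 bases. They were 0.012 under 600 bases, 0.10 from 600 to 1000, 0.052 from 1000 to 2000, -0.019 from 2000 to 4000 and -0.10 above 4000. The members in the classes up to 4000 bases had 0.19, 0.17, 0.18 and 0.23. Between the quartiles of the members' lengths the median was 0.17 for members and 0.11 for other genes. In the set of short and abundant genes it was 0.20 for members and 0.17 for the others. At 9 weeks against vehicle, the other genes under 600 bases had 0.099 and the members 0.055. In the 2 libraries that stood apart, which were picked for high values of the members, the members lay above other genes of their length class. In female 15-week replicate 2 the median difference from the vehicle mean was 0.74 for members and 0.45 for other genes under 600 bases, 0.59 and 0.37 at 600 to 1000 bases, and 0.59 and 0.19 at 1000 to 2000 bases. In male 15-week replicate 5 the values were 0.65 and 0.48, 0.54 and 0.42, and 0.54 and 0.24. The other short and abundant genes had 0.52 in the female library and 0.64 in the male library, where the members of that set had 0.62 and 0.56. Without these 2 libraries the lengths between the quartiles gave 0.080 for the members and 0.11 for 1211 other genes at 15 weeks against vehicle.

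The fit was repeated with a per-library scaling for length, a spline of transcript length through the genes that are no members, centred so that the TMM scale of a library stays. With it the members' median at 15 weeks against vehicle was 0.038 (quartiles -0.016 and 0.095, 55 of 84 above 0) and that of other genes under 1000 bases 0.020. Rps27l (0.24, adjusted p = 0.0175) and Rps20 (0.44, adjusted p = 0.0271) were then called as higher, and Rps4l (-1.02, adjusted p = 3.78e-04) and Rpl9 (-0.25, adjusted p = 0.0491) as lower. In the same fit 6.66% of all genes were called as higher and 7.94% as lower. The scaled value of Rps20 depends on its annotated length of 3706 bases. At 15 against 9 weeks the median with this scaling was 0.10 with 74 of 84 above 0, against 3.1e-04 for the other genes under 1000 bases. No member was called there, where 4.6% of all genes were. At 9 weeks the members' median was -0.054, and Rpl18, Rpl9 and Rps4l were called as lower, with no share of all genes beside them here. The shift of female 15-week replicate 2 was then 0.32 and that of male 15-week replicate 5 was 0.20, the latter level with male vehicle replicate 1 at 0.20, the library with the highest smooth muscle markers. With the scaling and without both libraries, the median at 15 weeks was -0.0053, with 40 of 84 above 0. How fragment length, RNA quality and the makeup of the scrapes relate to the length trend was not tested.

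**Figure D5:**
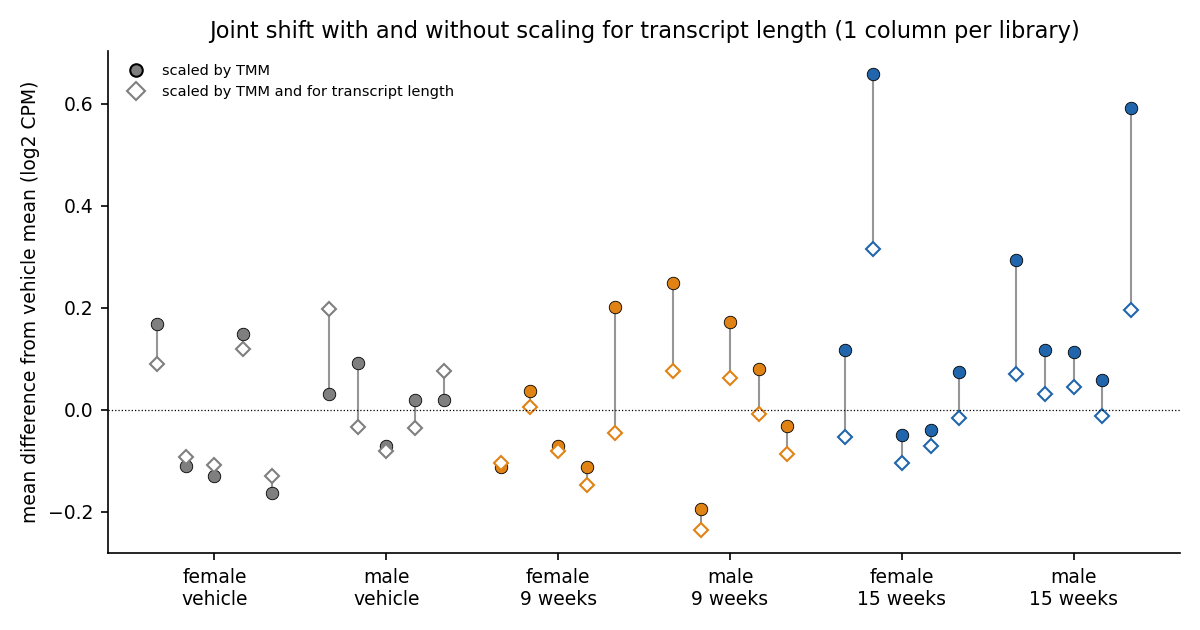
For each of the 30 libraries, in 1 column each, the mean difference of the members from their vehicle mean (log2 CPM) is shown without and with the scaling for transcript length. The 2 highest libraries at 15 weeks move from 0.66 to 0.32 and from 0.59 to 0.20, and the female one remains the highest of the 30.

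The other genes of the pathway were read from fixed lists, by their counts called at an adjusted p under 0.05 and by medians of log2 fold change at 15 weeks against vehicle, where 7.76% of all genes rose and 9.66% fell. Without the 2 libraries that stood apart, 4.32% rose and 5.12% fell. Of 21 tested translation factors and other genes with a TOP mRNA, 2 rose and none fell (median 0.14), or 1 without both libraries (median 0.064), so that the share was near that of all genes. They were Btf3, a subunit of the nascent polypeptide-associated complex (0.25, adjusted p = 0.00686), and Rpl36al, a ribosomal protein gene outside the naming pattern (0.30, adjusted p = 0.0247). Of 32 genes of ribosome biogenesis, 7 rose and none fell (median 0.14), or 1 without both libraries (median 0.13), among them Nhp2 (0.60, adjusted p = 0.00745) and Nop10 (0.43, adjusted p = 0.0203) of the RNA-modifying box H/ACA particles and the small subunit assembly factor Bysl (0.38, adjusted p = 0.0300). Of 17 regulators of ribosomal protein synthesis, Eif4ebp1, the mTOR-controlled repressor of translation, rose (0.42, adjusted p = 0.0231) and Max, the partner of MYC, fell (-0.27, adjusted p = 0.0439), with a median of -0.0070. Without both libraries 1 of the 17 rose and none fell (median 0.035). No gene of 20 in the cell cycle list was called with both libraries or without them (median 0.17 and 0.19). At 9 weeks, where 9.88% of all genes rose and 6.32% fell, these lists had 1 gene called as higher and 3 as lower, with Eif4b (-0.22, adjusted p = 0.00863), Ubtf, a factor of ribosomal RNA transcription (-0.25, adjusted p = 0.00927), and Tsc2, a brake on mTOR (-0.25, adjusted p = 0.00251), as those lower.

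Beside them, of 14 epithelial markers 3 rose and none fell at 15 weeks, of 10 smooth muscle markers 8 fell (median -2.82) and of 14 mesenchyme markers 5 fell (median -1.19). These falls were found in males, with 10 of 10 and 9 of 14, while in females none of either list was called. They rested on male vehicle replicate 1, without which 0 of 10 smooth muscle markers (median -0.92) and 2 of 14 mesenchyme markers (median -0.76) fell, where 5.87% of all genes did. Of the immune lists, 4 of 10 neutrophil, 2 of 12 T cell, 1 of 10 macrophage, 1 of 8 plasma cell and 0 of 10 B cell markers rose, and none fell. Without the 2 libraries that stood apart, 2 of 14 epithelial markers rose, 3 of 10 smooth muscle and 4 of 14 mesenchyme markers fell, and 1 neutrophil, 1 T cell and 1 plasma cell marker rose. At 9 weeks, where the ribosomal protein genes were level, 9 of 10 neutrophil, 9 of 12 T cell, 5 of 10 macrophage and 5 of 8 plasma cell markers rose. The part of these cell types in the members' change was not tested.

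The members varied together over the 30 libraries. The Spearman correlation of a member's log2 CPM with the mean of the other members had a median of 0.79, with 42 of 84 above 0.8, and without the 2 libraries that stood apart the median was 0.75. All points share their libraries and their depth, and over the 16177 other genes the median correlation with the mean of the members was -0.022, with 14 above 0.8. The 7 members below 0.5 were Rpl24 (0.032), Rps4l (0.083), Rps3a3 (0.13), Rps12l1 (0.16), Rpl7l1 (0.32), Rps3a2 (0.35) and Rpl9 (0.49), which include every pseudogene tested and the gene with the overlapping read-through transcript. Of the genes that are no members, those most like the mean of the members over the 30 libraries were Gnb2l1, which encodes the ribosome-bound scaffold RACK1 (Spearman 0.89), the initiation factor gene Eif3k (0.88), Rnf220 (0.85), Tsr3, an enzyme that modifies ribosomal RNA (0.85), and Brms1 (0.84). Hist1h4i (0.82), Mrps26 (0.82), Atox1, Puf60 and Arl6ip4 (0.81 each) followed, and without the 2 libraries the 10 correlations were 0.76 to 0.86. None of these 10 except Atox1, a copper chaperone (log2 fold change 0.33, adjusted p = 0.0367), was called at 15 weeks against vehicle.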

How the data were processed

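Per the paper's methods and the labels, the authors trimmed paired reads of stranded poly(A) libraries with Trim Galore, aligned them to GRCm38 (mm10) with STAR and counted genes with featureCounts. These deposited raw counts were tested. The authors' StringTie FPKM and TPM values, as deposited in 1 file per library, served for levels between genes and as alternatives, after adding the 11 to 20 repeated gene lines of a file. Duplicate reads stayed in the counts. No versions of the aligner or counter are given in the sources used here.

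Genes were kept by filterByExpr (16261), scaled by TMM and fitted with edgeR 4.0.16 in R 4.3.3 by a quasi-likelihood model on all 30 libraries, with a coefficient for each of the 6 groups. A gene was called at a Benjamini-Hochberg adjusted p under 0.05 over all genes. Sexes were pooled by averaging group coefficients. Log2 CPM used a prior count of 2 and log2 FPKM a pseudocount of 1. Alternatives used DESeq2 1.42.0, limma 3.58.1, other normalizations, filters and libraries, and a length offset (MASS 7.3.60.0.1, robust spline with 4 degrees of freedom), whose robust and centred form was chosen after values of a least-squares form had been seen. The scripts were checked on simulated data. Replicate numbers did not pair the mice: of 75 same-numbered pairs, 12 had correlated deviations above 0.1 (range -0.58 to 0.47).

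The length of a gene is that of its principal coding transcript. The members and all lists were chosen with earlier results of these data known. Named members were the 5 largest rises and falls called in each pooled comparison, the paralog pairs, the stalk genes and the 3 shortest and 3 longest; other members called, and Rpl9, Rpl18 and Rpl24, were named after their values were seen. From each list, up to 4 genes with the lowest adjusted p were eligible. Columns of samples outside the labels numbered 0. No protein sequence was used here.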

Additional observations from a re-analysis of the deposited data

Results flagged for a closer look

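Of 66 sets of 5 libraries that were searched for a library far from the others (shares, shifts, length trends and named members), 10 had one whose gap to the nearest library, over the whole range, was above 0.71. Chance gives about 1 in 20 for independent sets chosen beforehand. The sets here share libraries, and the single genes were chosen by their change in these same data, so that rate does not apply to them. Of the 10, 5 were in female 15-week replicate 2. Its joint shift was 0.659 where the next library of the group had 0.117, its shift with the length scaling was 0.315 where the next had -0.0158, and its Rpl41, Rps12 and Rps20 levels were 1636, 1194 and 675 CPM where the next were 798, 561 and 374 CPM. In male 15-week replicate 5, the members took 5.29% of the counts where the next male library had 4.02%. In female 9-week replicate 5, the slope, over genes that are no members, of the difference from the gene mean on log2 transcript length was -0.084 where the nearest library had 0.00596, and Rpl41 was at 912 CPM where the next had 559 CPM. Rps4l was lowest in female 15-week replicate 4, at 3.71 CPM against 5.32 CPM in the next, and highest in male 9-week replicate 1, at 7.48 CPM against 4.79 CPM in the next. No member passed a test of the difference between the male and female changes.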

How the results depend on the processing

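Over both sexes, the members called at 15 weeks against vehicle were 16, and they were 26 with DESeq2 (25 higher), 10 without the filter on low counts, 7 with the compared groups alone, 6 with the replicate block (5 higher, 1 lower), 4 with the length offset and 4 with its least-squares form, 3 with library totals in place of TMM, 2 with limma on log2(FPKM + 1), and 2 without the 2 libraries that stood apart. With size factors of DESeq2 in edgeR they were 18, and with TMM computed without the members 16. Calls over all genes moved as well. In the main fit 7.76% of all genes rose and 9.66% fell. With the length offset 6.66% rose and 7.94% fell, and without the 2 libraries 4.32% and 5.12%. The counts under the other settings are given without that share. They do not tell a change of the members from one of all genes. The 1 call at 9 weeks became 2 with DESeq2, library totals and FPKM, 3 with the offset and 35, all lower, with its least-squares form, where the median was -0.19 against -0.11 over all genes. The 0 calls at 15 against 9 weeks became 2 with DESeq2 and 56, all higher, with the least-squares form, where the median over all genes was 0.13. The FPKM median of that comparison was -0.022. In males at 15 weeks DESeq2 called 8 members in place of 3. At 9 weeks, DESeq2 called 1 member in females and 1 in males, and the offset 1 and 2. Leaving out 1 library gave 4 to 23 calls at 15 weeks, 1 to 2 at 9 weeks, 0 to 22 at 15 against 9 weeks, 2 to 7 in males at 15 weeks, 0 to 1 in either sex at 9 weeks and 0 to 1 between vehicle-treated males and females. The median at 15 weeks was 0.15 to 0.24 in those fits. The replicate block changed no other count of calls. The cause of these changes was not tested.

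The shallowest library held 9265804 counts. A mean of at least 500 counts per library was reached by 79 members, and depth limits what can be said of Rps4l, Rps12l1 and the other low members. With a median SE of 0.096 over both sexes and 0.14 by sex on the log2 scale, changes of the size seen here are near the limit of the test.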

Other observations

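Lists of other housekeeping complexes, chosen with earlier results known, were read beside the cytosolic ribosome. Of 76 tested mitochondrial ribosomal protein genes, whose products form the separate ribosome of that organelle, 21 rose and none fell at 15 weeks against vehicle, with a median log2 fold change of 0.22 and a median transcript length of 1251.5 bases. Mrpl20 had 0.39 (adjusted p = 0.0049, edgeR's quasi-likelihood test). Of 73 nuclear genes of oxidative phosphorylation, 25 rose and none fell, with a median of 0.25 and a median length of 704 bases, and Ndufs4 of complex I had 0.44 (adjusted p = 0.00525). At 9 weeks, the calls were 1 higher among the mitochondrial ribosomal protein genes and 2 lower among those of oxidative phosphorylation, with medians of 0.024 and 0.022. At 15 against 9 weeks, 5 and 4 rose. Without the 2 libraries that stood apart, 7 and 5 rose at 15 weeks against vehicle, with medians of 0.18 and 0.18, and with the length offset 13 and 4 rose, with medians of 0.12 and 0.098.

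All 17 tested genes of the proteasome core rose at 15 weeks (median 0.34) and 10 of them at 9 weeks (median 0.26). At 15 weeks, 13 rose without the 2 libraries (median 0.29) and 12 with the length offset (median 0.21). The largest rises were in the interferon-induced catalytic subunits Psmb8, with a log2 fold change of 2.10 at 9 weeks and 1.57 at 15 weeks, and Psmb9, with 2.06 and 1.24. The share of all genes called as higher was 7.76% at 15 weeks, 4.32% there without the 2 libraries, 6.66% there with the length offset, and 9.88% at 9 weeks. These lists and the ribosomal protein genes were read from the same libraries.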
